A study of Homo sapiens with 6 samples.

Results

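The genes described here are 10 members of the vascular endothelial growth factor (VEGF) system and its neighbours: the ligands VEGFA, VEGFB, VEGFC and PGF, the receptors FLT1, KDR, NRP1 and NRP2, and the secreted angiogenic factors ADM and ANGPTL4. They were chosen by name from 31369 genes in the deposited count table, and all 10 were found there. RNA-seq was done in HK-2, an immortalised line of human proximal tubule epithelium, in 3 control samples (NC) and 3 samples overexpressing PPM1K (OE), a mitochondrial phosphatase that activates the breakdown of branched-chain amino acids. Per the labels the control genotype was WT and the other PPM1K overexpress, all 6 samples were taken at day 10, and all carried the treatment entry "Chronic kidney disease". The sample titles name a short hairpin in both groups although the genotype entries name overexpression, and the cell line entry carries a running number while the cell type is HK-2 throughout. Cells received plasmid by lipofection, so each sample may mix cells with and without it. What the control cells received and whether replicates were separate cultures were not stated, so p-values measure the spread between these samples, which may be technical.

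VEGF ligands are secreted proteins that drive growth, survival and leakiness of blood and lymphatic vessels. VEGFA acts through the receptor tyrosine kinases FLT1 and KDR, VEGFB and PGF through FLT1, and VEGFC mainly through FLT4, while NRP1 and NRP2 are co-receptors without kinase activity. In the kidney, tubule and glomerular epithelial cells are sources of VEGFA for the neighbouring capillaries, whose endothelium carries the kinase receptors, and VEGFA, ADM and ANGPTL4 are textbook hypoxia-inducible genes.

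PPM1K, the targeted gene, had 37, 19 and 53 counts in the control samples and 3294, 3531 and 2919 in the OE samples. Every OE sample therefore lay above every control sample, in the direction of the genotype entries and not of a knockdown, and the log2 fold change was 6.39 (edgeR quasi-likelihood test, adjusted p = 1.1e-18). Each sample held 34635770 to 39850802 counts, and 22094 to 22913 genes had at least 1 count in 5 samples, against 26478 in NC replicate 2, which stood apart. Of 14 endothelial markers, 7 were under 1 CPM (read counts scaled to library size, with TMM) in every sample, and their summed level was 25.4 to 30.1 CPM in NC and 29.6 to 31.0 CPM in OE, with EGFL7 the highest; 4 of the 8 tested, PECAM1, VWF, ESAM and ROBO4, passed as higher in OE, and 2 did with DESeq2 or without NC replicate 1, NC replicate 2, OE replicate 2 or OE replicate 3. Of 14 proximal tubule markers, 9 were under 1 CPM in every sample, LRP2, CUBN and AQP1 among them, and PAX8 made up most of the summed 218 to 231 CPM in NC and 258 to 279 CPM in OE. Of 5 tested, PAX8 passed as higher (log2 fold change 0.25). GGT1 (1.35 to 0.633 CPM, -1.09) and SLC5A2 (0.831 to 0.394 CPM, -1.08) passed as lower. Only 1 passed as lower with DESeq2 or without NC replicate 2, OE replicate 1 or OE replicate 2. The summed epithelial line markers, keratins above all, were at 4832 to 5260 CPM in NC and 3864 to 4224 CPM in OE, and 6 of 10 passed as lower and 1 as higher. This list also holds VIM and CDH2. VIM, at 982 CPM in NC and 771 CPM in OE, and CDH1, at only 2.07 and 0.973 CPM, were among the lower. The summed fibroblast and mural markers were at 18.3 to 19.7 CPM in NC and 8.31 to 9.94 CPM in OE, and of 3 tested LUM (4.77 to 1.24 CPM) and COL1A1 (log2 fold change -0.99) passed as lower. The blood cell markers summed to at most 1.24 CPM in any sample. For comparison, 24.9% of all genes tested passed as higher in OE and 23.7% as lower. The part of these marker differences in the results below was not tested.

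Of the 10 members, 8 had enough counts to be tested, and FLT1 and KDR did not. VEGFA, ADM and ANGPTL4 rose in OE cells, no member fell, and 5 did not pass the test. An adjusted p under 0.05 (Benjamini-Hochberg over 15878 genes tested) was reached by 48.6% of all genes in either direction, by 24.9% as higher and by 23.7% as lower in OE, so the 3 of 8 tested members that were higher stand against a background of 24.9%. Only VEGFA also passed the fold change threshold of 2, which 1.73% of tested genes passed as higher and 5.51% in either direction. The median log2 fold change was 0.13 over the 8 tested members and -0.003 over all genes tested. In 6 members every OE sample lay above every NC sample in CPM, against 28.2% of all genes tested; for each of them the two-sided exact permutation test gave p = 0.1, the smallest that 3 against 3 samples allow.

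**Figure D1:**
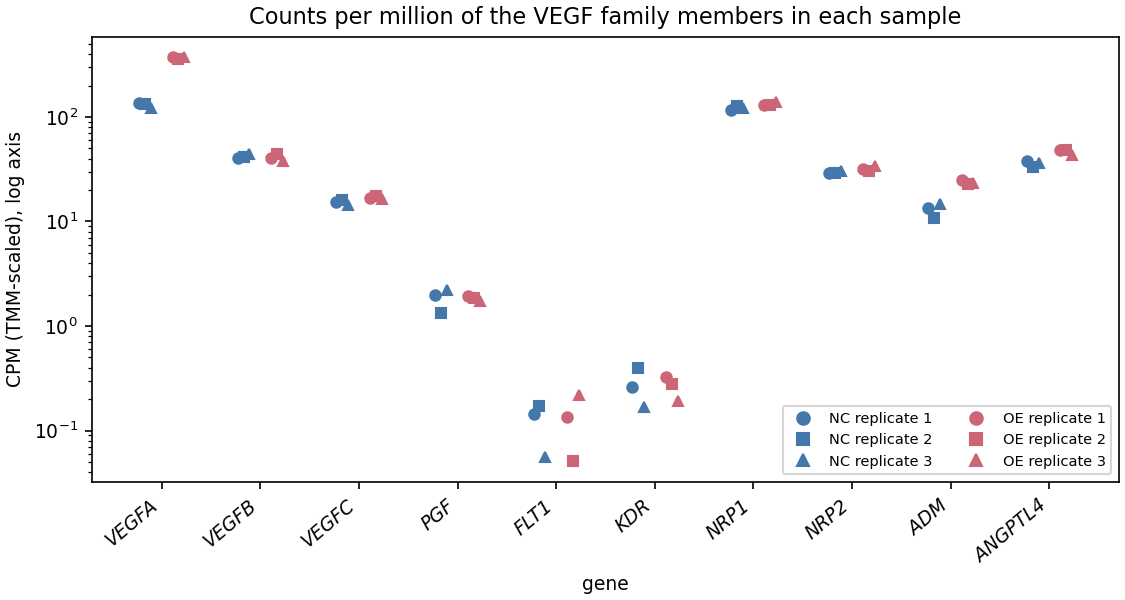
TMM-scaled CPM of each member in each of the 3 NC and 3 OE samples, on a log axis; each point is a sample. VEGFA went from 123 to 137 CPM in NC to 361 to 375 CPM in OE, and FLT1 and KDR lay at the bottom of the plot in both groups.

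VEGFA, the main inducer of blood vessel growth, was the member with the largest difference. Its level was 137, 133 and 123 CPM in the NC samples and 375, 361 and 371 CPM in the OE samples, from counts of 4757, 4668 and 4436 against 13861, 14284 and 13475. The groups were far apart, and the spread within each was small (131 ± 6.83 CPM in NC and 369 ± 7.23 CPM in OE, SD, n = 3). VEGFA rose 2.82-fold (95% interval 2.62 to 3.04), a log2 fold change of 1.50 with SE 0.05 (edgeR, adjusted p = 3.2e-15). Among all genes tested, 74 had a larger log2 fold change. In these bulk samples more cells with the transcript and more transcript per cell cannot be told apart. VEGFA (ENSG00000112715) lies on the plus strand of chromosome 6, from 43770184 to 43786487 in GRCh38, with 26 annotated transcripts and 8 exons in the canonical form. The counts are per gene, so they do not separate the VEGFA isoforms that differ in heparin binding. By FPKM the values were 8.83, 8.35 and 7.89 in NC and 23.93, 23.43 and 24.34 in OE, so the same separation was seen per length. An antisense gene that overlaps it had at most 3 counts in any sample.

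The other 3 ligands did not pass the test. VEGFB, which acts through FLT1, had 40.5, 41.6 and 44.5 CPM in NC and 40.9, 43.9 and 38.0 CPM in OE. These groups overlapped, and the fold of OE over NC was 0.97 with a 95% interval of 0.882 to 1.07 (edgeR, adjusted p = 0.61). VEGFC, the lymphatic vessel growth factor, had 15.5, 16.1 and 14.4 CPM in NC and 16.8, 17.6 and 16.5 CPM in OE. Its groups did not overlap, with OE higher, but the difference was small (log2 fold change 0.15, 95% interval -0.02 to 0.31; edgeR, adjusted p = 0.14). PGF, the placental growth factor, was rare, with 47 to 79 counts in NC and 63 to 74 in OE. Its groups overlapped, and its interval was wide (log2 fold change 0.01, -0.43 to 0.45; edgeR, adjusted p = 0.97).

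VEGFA took a larger share of the summed level of the 4 ligands in OE. This follows from its rise beside ligands that did not pass, and is not a separate result. On the deposited FPKM scale, which divides fragments by transcript length and by library size, VEGFA made up 26.1, 25.0 and 23.1% of the ligand sum in NC and 48.6, 46.0 and 49.8% in OE. All OE samples were above all NC samples, and the means differed by 23.4 percentage points (two-sided exact permutation test, p = 0.1, the smallest that 3 against 3 samples allow). The FPKM values were found to divide by the union of all annotated exons, which for VEGFA is 4.0 times its canonical transcript. When CPM were divided by canonical transcript length instead, the share went from 53.7% ± 2.08 in NC to 76.6% ± 1.38 in OE (SD, n = 3), so the size of the share depends on the length used and the direction does not.

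**Figure D2:**
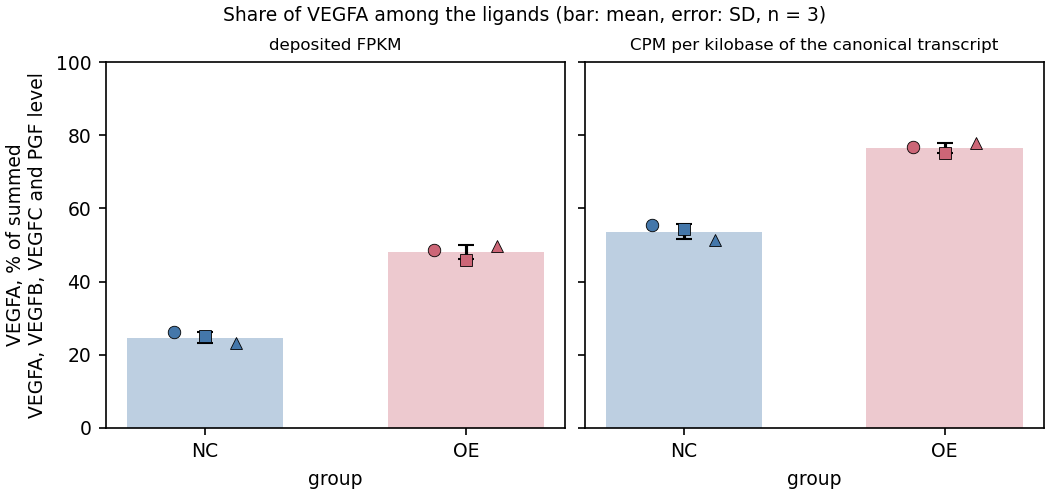
Share of VEGFA, in percent, in the summed level of VEGFA, VEGFB, VEGFC and PGF, by FPKM (left) and by CPM per kilobase of canonical transcript (right); bars are means, error bars SD and points the 3 samples of each group. By FPKM the NC samples lie at 23.1 to 26.1% and the OE samples at 46.0 to 49.8%.

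Levels of different members were compared per length only. By FPKM the order in NC was VEGFB (19.7), ANGPTL4 (13.3), NRP1 (9.71), VEGFA (8.36), VEGFC (5.40), ADM (5.18), NRP2 (1.96), PGF (0.293), KDR (0.04) and FLT1 (0.00667), where VEGFC and ADM did not differ beyond their spread. In OE the order was VEGFA (23.9), VEGFB (19.4), ANGPTL4 (17.6), NRP1 (10.7), ADM (9.54), VEGFC (6.06), NRP2 (2.15) and PGF (0.297), where the ranges of VEGFB and ANGPTL4 overlapped. VEGFA thus moved from the fourth place to the first on this scale. By CPM per kilobase of canonical transcript it was first in both groups, at 36.3 in NC and 102 in OE.

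The kinase receptors of VEGFA were hardly detected. FLT1 had 5, 6 and 2 counts in NC and 5, 2 and 8 in OE, and KDR had 9, 14 and 6 against 12, 11 and 7. Counts were summed over samples and scaled to TMM library sizes. The OE to NC ratio was 1.08 for FLT1 (95% exact interval 0.481 to 2.48) and 0.972 for KDR (0.564 to 1.68). Both intervals cover counting error only. No difference was detectable at this depth, and these intervals allow sizeable differences either way. The third VEGF receptor tyrosine kinase, FLT4, which binds VEGFC, was measured more readily, at 6.25 ± 0.466 CPM in NC and 9.52 ± 0.321 CPM in OE (SD, n = 3), and rose (log2 fold change 0.61; edgeR, adjusted p = 5.8e-05). The ligand VEGFD, which shares that receptor, was not tested.

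The neuropilins, co-receptors for VEGF and class 3 semaphorins, were the most readily measured receptors. NRP1 lies at 10:33177492 to 33336262 on the minus strand and NRP2 at 2:205681990 to 205798133 on the plus strand. NRP1 had 117, 126 and 121 CPM in NC and 129, 129 and 138 CPM in OE. NRP2 had 28.9, 29.3 and 30.5 CPM in NC and 31.5, 30.5 and 33.7 CPM in OE. For both genes the OE samples lay above the highest NC sample, for NRP2 by less than the rounding, but the differences were small and neither passed: NRP1 had a log2 fold change of 0.12 (95% interval 0.02 to 0.23; edgeR, adjusted p = 0.052) and NRP2 one of 0.11 (-0.03 to 0.25; edgeR, adjusted p = 0.19). NRP1 lay at the threshold: its adjusted p was 0.048 with DESeq2 and 0.044 without NC replicate 2. Of 10 tested neuropilin partners, namely semaphorins, plexins and the adaptor GIPC1, 2 were higher and 6 (60.0%) lower. SEMA3E, a repellent for vessels, went from 30.0 to 14.0 CPM (log2 fold change -1.10; edgeR, adjusted p = 9.1e-10), and PLXNA3, a semaphorin receptor, from 48.1 to 25.0 CPM. PLXND1, the receptor of SEMA3E, and SEMA3B had log2 fold changes of -0.32 and -0.44. SEMA3A and SEMA3F, which were the 2 higher and were named after their values were seen, had log2 fold changes of 0.90 and 0.19. Neither call was firm: no gene of this list was higher with DESeq2 or without OE replicate 1, and 1 was without NC replicate 1, NC replicate 2, NC replicate 3 or OE replicate 2.

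ADM encodes adrenomedullin, a vasodilator peptide that also acts on endothelium. ADM (11:10305073 to 10307397 in GRCh38, plus strand) had 13.6, 10.9 and 14.7 CPM in NC and 25.1, 22.7 and 23.5 CPM in OE. Every OE sample exceeded every NC sample, and NC replicate 2 was the lowest. ADM rose 1.82-fold (95% interval 1.59 to 2.08), a log2 fold change of 0.86 with SE 0.09 (edgeR, adjusted p = 1.8e-07). By FPKM ADM was at 5.44, 4.25 and 5.84 in NC and 9.92, 9.13 and 9.56 in OE.

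ANGPTL4 encodes a secreted inhibitor of lipoprotein lipase with effects on vessels. The gene lies at 19:8363289 to 8374370 on the plus strand. Its level was 37.5, 33.1 and 36.3 CPM in NC and 48.2, 48.4 and 43.4 CPM in OE. No OE sample was within the NC range. ANGPTL4 rose 1.31-fold (95% interval 1.19 to 1.44), a log2 fold change of 0.39 with SE 0.07 (edgeR, adjusted p = 5.8e-05), the smallest change among the members that passed. Its relative ANGPTL2, a secreted angiopoietin-like protein, went from 17.2 to 31.9 CPM (log2 fold change 0.89).

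**Figure D3:**
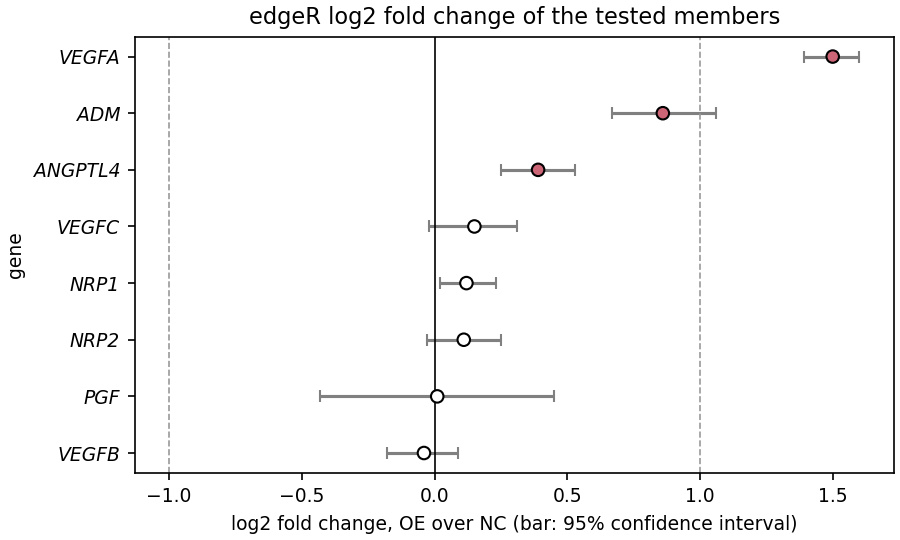
Log2 fold change of OE over NC for the 8 tested members, with 95% intervals from the edgeR fit; filled points passed an adjusted p of 0.05, and dashed lines mark 2-fold differences. The intervals of VEGFA, ADM and ANGPTL4 lie wholly above 0, and so does that of NRP1 (0.02 to 0.23), whose adjusted p was 0.052.

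Because VEGFA, ADM and ANGPTL4 are hypoxia-inducible, their promoters were searched for the cores of the hypoxia response element, ACGTG and GCGTG, on both strands of the 250 bases before the transcript start that RefSeq gives. RefSeq (GRCh38.p14) held 9 such windows for 8 of the 10 members, 2 of them for PGF and none for VEGFA and NRP1. These starts can differ from the GENCODE gene bounds: the windows of ANGPTL4 and NRP2 lie inside the gene as GENCODE bounds it. A core was present in 6 of the 9 windows, against 43.1% of all 34788 promoters of that length (18.5% hold ACGTG and 32.2% GCGTG). This background was not matched for base content, and the windows held 65.2 to 82.8% G and C. The 2 PGF windows overlap, so too few separate windows remain to read the share as enrichment. The first 2 of the sequences below are the promoters of members that rose and the last is that of a ligand that did not pass, all on the plus strand and written 5′ to 3′, with the core in capitals. They lie at chr11:10304823-10305072 (ADM), chr19:8363905-8364154 (ANGPTL4) and chr11:64234334-64234583 (VEGFB).
ADM: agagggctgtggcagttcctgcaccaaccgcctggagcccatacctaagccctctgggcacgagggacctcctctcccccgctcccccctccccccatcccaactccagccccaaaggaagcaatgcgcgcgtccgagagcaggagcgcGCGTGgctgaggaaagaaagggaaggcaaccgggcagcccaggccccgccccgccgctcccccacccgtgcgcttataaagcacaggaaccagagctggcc
ANGPTL4: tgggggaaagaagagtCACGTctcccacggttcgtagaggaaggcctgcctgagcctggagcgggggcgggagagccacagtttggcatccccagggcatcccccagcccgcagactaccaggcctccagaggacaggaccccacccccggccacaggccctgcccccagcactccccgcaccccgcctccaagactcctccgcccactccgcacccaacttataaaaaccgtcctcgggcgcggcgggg
VEGFB: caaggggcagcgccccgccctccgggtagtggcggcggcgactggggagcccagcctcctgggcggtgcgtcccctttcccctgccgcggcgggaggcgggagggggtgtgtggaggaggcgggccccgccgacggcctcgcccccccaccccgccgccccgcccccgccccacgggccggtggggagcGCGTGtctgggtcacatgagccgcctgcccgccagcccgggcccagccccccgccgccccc
The core starts 101 bases before the RefSeq start in ADM, 234 in ANGPTL4, where CACGT is ACGTG on the other strand, and 61 in VEGFB. So a core was present in the promoter of a ligand that did not pass as well as in those of members that rose. The motif TGATGNAA of the ATF4 type was in none of the 9 windows, against 3.16% of all promoters. At so low a rate 9 windows would usually hold none, so its absence here carries no information, and VEGFA had no window. A match is letters in a window, not a bound site.

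The counts of other genes of the same biology are read against the 24.9% of all genes tested that were higher and the 23.7% that were lower. Neither share was matched for expression level, here or for the members above. Of 35 tested hypoxia-inducible genes, members not counted, 4 (11.4%) were higher and 19 (54.3%) lower, with a median log2 fold change of -0.23. STC2, a secreted stress-response glycoprotein, went from 238 to 473 CPM and CA12, a carbonic anhydrase, from 6.47 to 19.7 CPM. LDHA, which makes lactate, went from 488 to 287 CPM, and PGK1, a glycolytic enzyme, from 248 to 164 CPM. The other higher genes, HK2 and DDIT4, had log2 fold changes of 0.63 and 0.39 and were named after their values were seen. Of 11 tested HIF pathway regulators, 6 (54.5%) were higher and 2 (18.2%) lower. EPAS1, the HIF-2 alpha subunit, went from 258 to 499 CPM (log2 fold change 0.95; edgeR, adjusted p = 3.3e-12), and HIF1A, the HIF-1 alpha subunit, from 446 to 533 CPM (0.26; edgeR, adjusted p = 6.8e-04). The coactivator CREBBP had a log2 fold change of 0.80 and CITED2, which competes with HIF for it, one of 0.35. The lower genes, ARNT and EGLN2, had values of -0.26 and -0.75, and the remaining higher genes, VHL and EP300, 0.17 and 0.14. These were likewise named afterwards. In this list 1 gene was lower without OE replicate 1 or OE replicate 2. The higher genes numbered 4 with upper quartile scaling, no count filter, a replicate block or limma over all genes. They also numbered 4 without NC replicate 1 or NC replicate 2.

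Of 20 genes that act on VEGFA transcription or mRNA, 12 (60.0%) were higher and 3 (15.0%) lower. DDIT3, a stress transcription factor, went from 47.4 to 100 CPM, and ETS1 from 104 to 190 CPM. FOS, an immediate early factor, went from 49.1 to 12.9 CPM, and ZFP36, which promotes decay of mRNAs with AU-rich elements, from 48.8 to 17.8 CPM. The third lower gene, STAT3, had a log2 fold change of -0.16 and was named after its values were seen. Of 12 tested PPAR target genes, 3 (25.0%) were higher, close to the 24.9% of all genes, and 4 (33.3%) lower, which became 2 without NC replicate 3. PDK4, an inhibitor of pyruvate oxidation, went from 14.4 to 6.85 CPM and CPT2, of fatty acid oxidation, from 7.73 to 5.15 CPM, while ACSL1, which activates fatty acids, went from 14.2 to 19.2 CPM and PLIN2, a lipid droplet protein, from 76.7 to 86.7 CPM. The remaining genes, CPT1A (log2 fold change 0.20), ACADVL (-0.15) and ETFDH (-0.31), were named after their values were seen.

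Of 46 tested VEGF receptor signalling genes, 18 (39.1%) were higher and 11 (23.9%) lower, the latter close to the 23.7% of all genes. SH2D2A, an adaptor of KDR, went up by 1.19 on the log2 scale from 5.72 CPM in NC, while HSPB1, a small heat shock protein, went from 384 to 200 CPM and PIK3R1, a PI3 kinase subunit, from 48.7 to 29.7 CPM. MAPKAPK3, a kinase, went from 25.4 to 39.6 CPM. Of 17 other tested pro-angiogenic factors, most of them secreted, 3 (17.6%) were higher and 10 (58.8%) lower. FGF2, a growth factor for vessels, went from 26.4 to 57.7 CPM (edgeR, adjusted p = 2.4e-11), EFNB2, an ephrin ligand, from 27.4 to 45.5 CPM, while IL6, a cytokine, went from 60.4 to 29.0 CPM and CCN2, a matricellular protein, from 220 to 156 CPM. For IL6 the paper reports a significant increase by RT-PCR, opposite in direction to its sequencing. For VEGFA it reports a significant RT-PCR increase in the same direction as its sequencing. Per the paper, both methods used the same RNA. The remaining higher gene, CCN1, had a log2 fold change of 0.17 and was named after its values were seen. Of 15 tested angiogenesis inhibitors, 3 were higher and 9 (60.0%) lower. THBS1, a thrombospondin, went from 267 to 134 CPM (edgeR, adjusted p = 4.2e-12), and SPARC, a matrix protein, from 458 to 258 CPM. VASH1, a vasohibin, and THBS2 had log2 fold changes of -0.57 and -0.49. The higher inhibitors, SPRY4, SPRY2 and ADAMTS1, had log2 fold changes of 0.49, 0.23 and 0.16 and were also named afterwards.

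**Figure D4:**
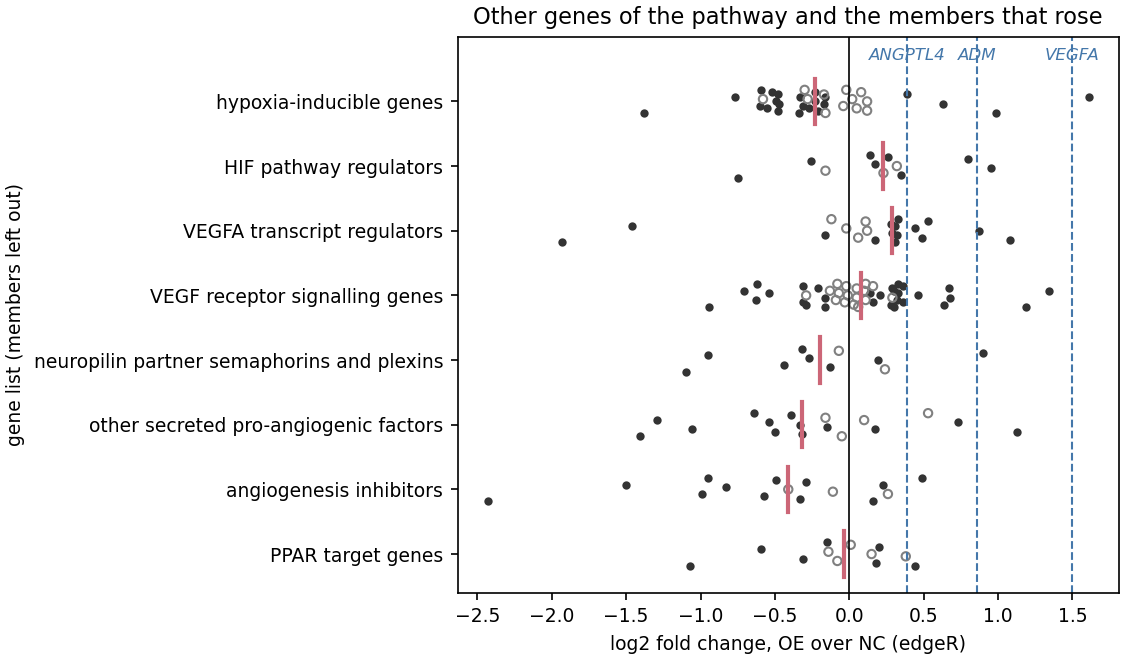
Log2 fold change of OE over NC for the tested genes of 8 lists without the members; filled points passed an adjusted p of 0.05, open points did not, red bars are list medians and dashed lines mark ANGPTL4, ADM and VEGFA. The median of the hypoxia-inducible genes is -0.23, and CA12 is the only gene of that list to the right of VEGFA.

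Among the genes most like VEGFA over the 6 samples, by Pearson r of log2 CPM in the 11771 genes whose counts averaged 100 or more, were UPF3B, LINC01322, PRKCE and CLDN11, with r from 0.9991 to 0.9998. These points share libraries and mostly reflect the difference between the groups, so r is given as a description. Their log2 fold changes of 0.50, 0.35, 1.01 and 0.28 were all smaller than that of VEGFA.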

How the data were processed

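RNA was sequenced from 3 NC and 3 OE samples of HK-2 cells. Per the authors' methods, reads were trimmed and aligned to GRCh38 with HISAT2; the annotation and the strand used in counting were not given in the sources used here. The authors deposited raw read counts per gene and FPKM values. The authors' FPKM were used for levels per length, and the deposited counts for tests. Counts were filtered with filterByExpr, scaled by TMM and fitted with edgeR 4.0.16 in R 4.3.3, with group as the only term, giving 15878 genes tested and a biological coefficient of variation of 6.3%. Genes were called at an adjusted p under 0.05, and at a fold change above 2 or below 0.5. Gene positions were from GENCODE, to which 99.8% of identifiers matched, and promoters from RefSeq. The 6 libraries held 34635770 to 39850802 counts, so genes under about 10 counts carried wide intervals. Alternatives were DESeq2 1.42.0 with default filtering, other size factors, no or stricter filters, a test against a 2-fold change, a replicate block, limma 3.58.1 on log2 FPKM with pseudocounts of 1 and 0.1, and leaving out each replicate. The fit was tested on simulated data. The members, gene lists and tests were chosen with earlier results of these data known. The text names the 10 members, PPM1K, up to 4 genes with the smallest adjusted p per list, and the 5 genes most like VEGFA, except that some results under this rule are not reported here; genes named only to complete a small count were chosen after their values were seen.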

Additional observations from a re-analysis of the deposited data

How the results depend on the processing

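VEGFA passed the adjusted p threshold and the fold change threshold under all 16 alternatives, with log2 fold changes of 1.41 to 1.53. ADM (0.75 to 0.96) and ANGPTL4 (0.34 to 0.43) passed under 15, failing the test against a 2-fold change, under which 1 member kept an adjusted p under 0.05. NRP1 passed under 2 of 16 (0.085 to 0.15) and VEGFC under 2 (adjusted p = 0.044 and 0.045 with limma on FPKM). PGF was at -0.028 under upper quartile scaling, and leaving out each replicate gave -0.17 to 0.16 for PGF and -0.095 to 0.004 for VEGFB; the cause was not tested. The 875 genes called became 186 in the test against a 2-fold change and 125, 273 and 123 in the limma fits. The lower hypoxia-inducible genes numbered 11 to 21 over the alternatives that test against no change. They numbered 14 with DESeq2 and without NC replicate 1, NC replicate 2 or OE replicate 2. In the limma fit over all genes the lower genes numbered 5 of VEGF receptor signalling and 5 of the angiogenesis inhibitors, and in the 3 limma fits 0 of the HIF regulators and 1 of the PPAR targets. Same-numbered samples did not deviate together (correlations of -0.0147, -0.133 and -0.13), and the labels give the numbers no meaning. With 3 samples per group this check cannot tell whether they shared a culture or batch. With a replicate block 3 members kept an adjusted p under 0.05, 1 was called, and 877 genes were called. Genes with few counts, FLT1 and KDR among them, limit what could be detected.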
